A study of Rattus norvegicus with 2 samples.

Results

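Rab GTPases are small GTP-binding proteins of the Ras superfamily, and the 51 genes described here are all names of the form Rab followed by a number and an optional letter among 14913 distinct gene names counted in RBL-2H3 cells. RBL-2H3 is a rat basophilic leukemia line, a transformed line often used in place of mast cells and basophils. The 2 libraries were 1 of wild-type cells with no treatment and 1 of wild-type cells incubated with IgE, and the labels state neither a dose or duration of IgE nor an antigen. The study asked what happens downstream of IgE acting on its high-affinity receptor. With 1 library per condition, each difference below is between 2 libraries, has no replicate check and carries no test across samples.

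Each Rab cycles between a GDP-bound form held in the cytosol and a GTP-bound form on the membrane of a particular organelle, where it recruits effectors that move, tether or fuse vesicles. Exchange factors load GTP, GTPase-activating proteins return the Rab to its GDP form, and escort proteins and GDP dissociation inhibitors handle its prenylated tail. In mast cells and basophils, Rab27a and Rab27b act in the docking of secretory granules at the plasma membrane, Rab3d and Rab37 are found on secretory granules, and Rab5 acts in the growth and fusion of granules. Crosslinked IgE receptors are themselves taken up through Rab5-positive and then Rab7-positive endosomes.

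The libraries held 20917968 (untreated) and 26268330 (IgE) counted reads. Of the 9 mast cell and basophil markers, 9 were counted in both libraries, with a summed level of 8316 CPM (read counts scaled to library size by TMM) untreated and 8609 CPM with IgE. Of 8 macrophage markers 3 were counted, summing to 5.48 and 3.21 CPM, of 6 lymphocyte markers 3 (15.8 and 16.8 CPM), and of 6 fibroblast and epithelial markers 2 (282 and 253 CPM, nearly all Col3a1). Their part in the Rab values was not tested. In bulk RNA, fewer cells of a type and less RNA per cell cannot be told apart.

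All 51 Rab genes had reads in both libraries. They drew 82162 reads untreated and 105187 with IgE, which is 0.393% and 0.400% of the counted reads. The summed Rab level was 3915 CPM untreated and 4017 CPM with IgE, a log2 fold (IgE over untreated) of 0.04 with a 95% counting interval of 0.02 to 0.05. This interval and those below are exact Clopper-Pearson intervals of the read ratio, and cover counting error only. Single genes ranged from Rab36, with 12 and 6 reads, to Rab27a, with 12623 and 15563. Reads are not compared between genes as levels, since no transcript lengths were used.

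**Figure D1:**
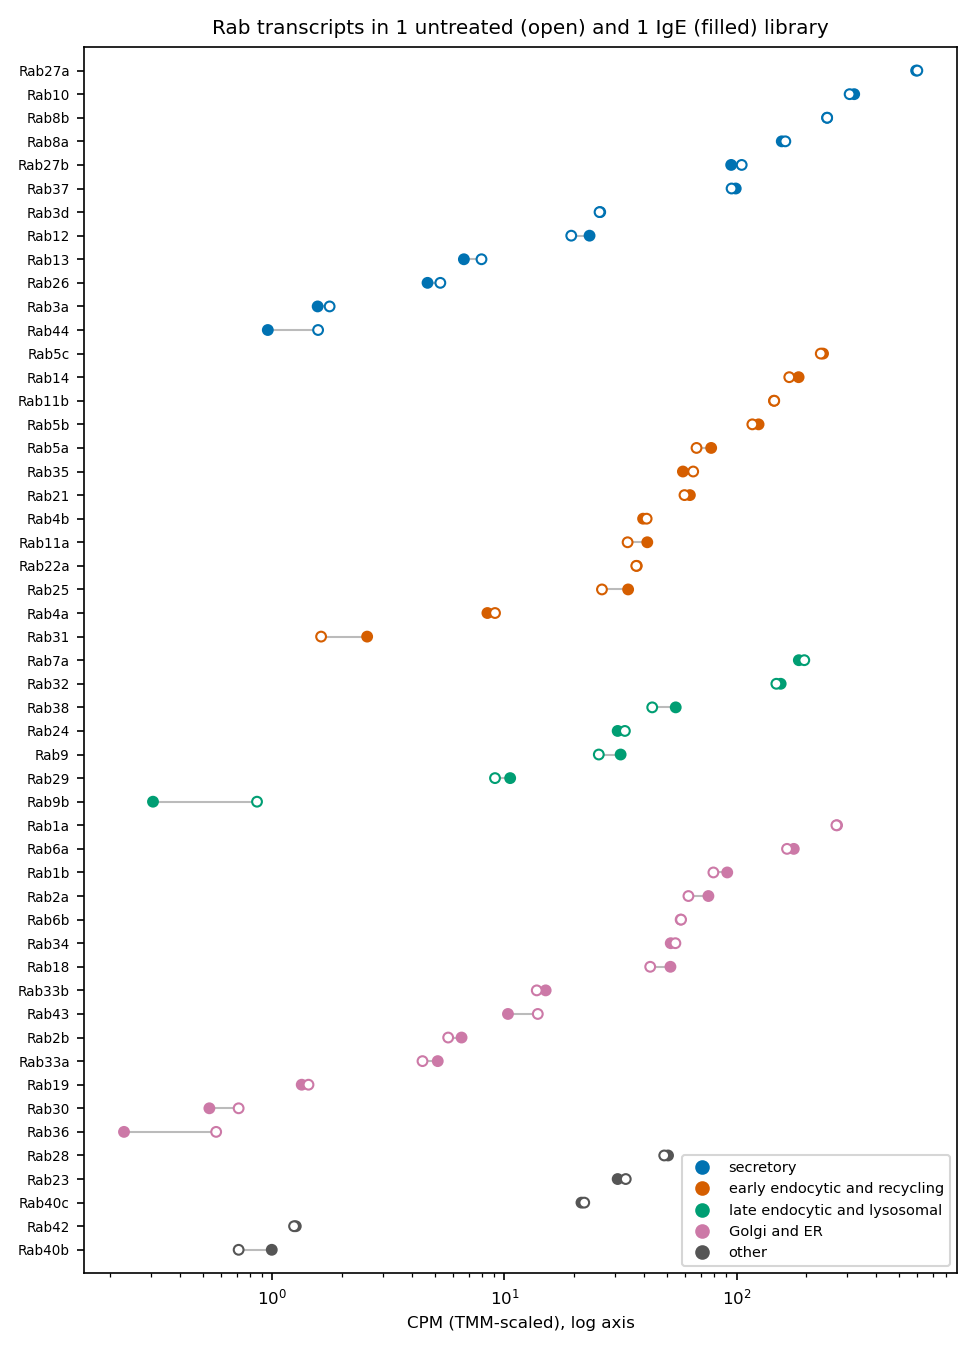
Level of each of the 51 Rab genes in CPM (log axis) in the untreated library (open points) and the IgE library (filled points), coloured by role and ordered by reads within a role. The pairs of points nearly coincide for the genes with most reads, such as Rab27a at 602 and 594 CPM, and stand apart mainly for weakly counted genes such as Rab9b.

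A ratio was computed for the 50 Rab genes with at least 20 reads in the 2 libraries together. Rab36 fell under that minimum with 18 reads in all, and Rab9b, with 26, and Rab30, with 29, lay just over it. Of the 50 genes, 28 lay above 0 on the log2 scale (56%) and 22 below, beside 51.1% above 0 among all 12102 genes with as many reads. The median log2 fold was 0.02, beside 0.00 for all genes. In 31 Rab genes the counting interval held 0, in 14 it lay above and in 5 below. The share of intervals excluding 0 was thus 38% for Rab genes and 38.5% for all genes, while the shares above and below were 28% and 10% for Rab genes against 20% and 18.6% for all. An interval narrows with more reads, so these shares depend on depth. With 500 or more reads the shares above and below were 36.1% and 11.1% for Rab genes, against 23.9% and 22.5% for all.

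1 Rab gene, Rab9b, was at least 2-fold apart, which is 2% of the 50, beside 2.63% of all genes. Rab9b, a paralog of the late endosomal Rab9, had 18 reads untreated and 8 with IgE (log2 fold -1.43, counting interval -2.90 to -0.22). In the authors' deposited table Rab9b had a log2 fold of -1.48 with an unadjusted p of 0.0277 and an adjusted p of 0.767, and every other Rab gene had an adjusted p of 1. Those p-values come from 1 library per condition and so rest on no replicate. At 1.5-fold, Rab31 (higher) and Rab44 (lower) joined Rab9b, so that 3 of 50 were apart (6%), beside 7.19% of all genes. These 3 genes had 26 to 101 reads over both libraries.

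**Figure D2:**
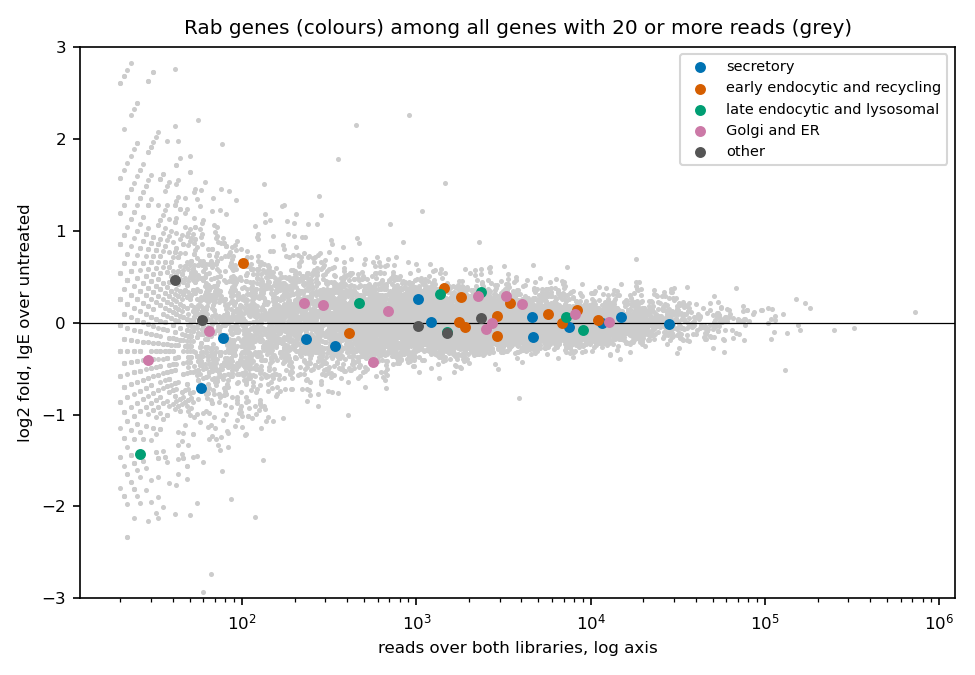
Log2 fold (IgE over untreated) against reads over both libraries (log axis) for all genes with 20 or more reads (grey) and the Rab genes among them (coloured by role); 8 genes beyond a log2 fold of 3 in either direction lie outside the axis. The Rab genes lie within the grey cloud at every read depth, and those beyond 1.5-fold have few reads.

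Among the 36 Rab genes with 500 or more reads, 0 were 1.5-fold apart, beside 0.418% of the 8369 genes with as many reads. Their log2 folds ran from -0.43 (Rab43) to 0.37 (Rab25), with an SD over genes of 0.17, the same as over all 8369 genes. At 1.2-fold, a step chosen after the values were seen, 6 of the 36 were higher (16.7%, beside 6.51% of all) and 1 was lower (2.78%, beside 3.79%). The 6 were Rab25, Rab38, Rab9, Rab18, Rab2a and Rab11a, of which 2 act in recycling, 2 in late endocytic traffic and 2 at the endoplasmic reticulum and Golgi. None of the 6 was a secretory Rab, but Rab12 of that group, at 0.26, lay just under 1.2-fold. The lower gene was Rab43. The 75 cytosolic ribosomal protein genes had a median log2 fold of 0.29 in the same libraries, within the range of those 6 genes (0.28 to 0.37), and the 13 mitochondrial transcripts a smaller one of 0.16 in the same direction. Their part in the Rab values was not tested.

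Sequences before the start sites were read for the family and are shown for 3 of its genes. Rab9b, with the lowest log2 fold of all Rab genes, is not among them. For 40 of the 51 genes RefSeq (build GRCr8) gave a window of 250 bases before to 50 after the start, 41 windows in all since Rab30 has 2. GGGCGG, the GC box, was in 75.6% of the Rab windows, beside 60.8% of the 9615 windows of genes with 20 or more reads. CCAAT was in 41.5% of the Rab windows (38.1% of those 9615), CACGTG, an E-box, in 7.32% (9.49%), CATGTG, the core of the M-box read by Mitf-family factors, in 4.88% (8.62%), and TATAAA in 0 of 41 (6.93%). The cAMP response element TGACGTCA was in 1 Rab window, that of Rab25 (2.44%, beside 3.15%). Motifs were read on both strands, and each was counted on its own without regard to overlap with another. A match is a description of these letters and not a binding site. The 250 bases before the start are printed for Rab31, the Rab with the highest log2 fold, and for Rab25 and Rab43, the highest and lowest with 500 or more reads, with matches to the 6 motifs in capitals. They lie at chr9:112828093-112828342, chr2:176304222-176304471 and chr4:121826512-121826761 of GRCr8, all on the minus strand.
Rab31: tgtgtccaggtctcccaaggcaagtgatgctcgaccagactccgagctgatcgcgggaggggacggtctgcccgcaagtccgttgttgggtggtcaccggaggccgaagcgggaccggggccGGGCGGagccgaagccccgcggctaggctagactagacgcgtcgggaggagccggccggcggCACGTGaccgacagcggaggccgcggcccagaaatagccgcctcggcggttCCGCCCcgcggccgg
Rab25: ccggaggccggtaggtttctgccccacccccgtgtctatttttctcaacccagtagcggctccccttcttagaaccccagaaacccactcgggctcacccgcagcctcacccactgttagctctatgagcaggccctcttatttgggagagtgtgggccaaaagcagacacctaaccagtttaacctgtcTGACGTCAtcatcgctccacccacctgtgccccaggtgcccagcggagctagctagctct
Rab43: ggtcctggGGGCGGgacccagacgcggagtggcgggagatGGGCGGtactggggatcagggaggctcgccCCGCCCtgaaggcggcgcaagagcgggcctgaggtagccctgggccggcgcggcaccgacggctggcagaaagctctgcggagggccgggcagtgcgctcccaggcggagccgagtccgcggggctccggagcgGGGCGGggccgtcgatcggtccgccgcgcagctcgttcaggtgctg
Rab31 has GC boxes at 128 and 15 bases before the start and CACGTG at 66 bases before it. In Rab25 the only match is TGACGTCA, 60 bases before the start. Rab43 has 4 GC boxes. CG pairs number 34, 9 and 32 in the 3 stretches.

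Secretory Rabs were close to level between the libraries. Of the 12 counted, 4 lay above 0 and 8 below (66.7%, beside 48.9% of all genes), and the median log2 fold was -0.03. Their summed level was 1579 CPM untreated and 1575 CPM with IgE (log2 fold -0.00, counting interval -0.02 to 0.02). Rab27a, which tethers granules at the plasma membrane, had 12623 reads (602 CPM) untreated and 15563 (594 CPM) with IgE, a log2 fold of -0.02 (-0.05 to 0.02). Rab27b, its paralog on granules, had 2209 reads (105 CPM) and 2483 (94.8 CPM). Its log2 fold was -0.15 (-0.23 to -0.07), so that Rab27b was slightly lower with IgE beyond counting error and Rab27a was not. Of the 8369 genes with 500 or more reads, 1204 were at or below the Rab27b value, Rab27b included.

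The granule Rabs Rab3d and Rab37 also had intervals that held 0. Rab3d had 539 reads (25.7 CPM) untreated and 677 (25.9 CPM) with IgE, a log2 fold of 0.01 (-0.16 to 0.18). Rab37 had 1998 (95.2 CPM) and 2598 (99.2 CPM), with 0.06 (-0.03 to 0.14). Rab3a, known from synaptic vesicles, was weakly counted at 37 and 41 reads (-0.17, -0.85 to 0.51). Rab26, a secretory granule Rab of gland cells, had 111 and 122 reads (-0.18, -0.57 to 0.20).

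Among the Rabs of constitutive traffic from the Golgi to the surface, Rab8a, Rab8b and Rab10 were likewise near 0. Rab8a had 3406 and 4102 reads (162 and 157 CPM, log2 fold -0.05, -0.12 to 0.01), and Rab8b had 5159 and 6433 (246 and 246 CPM, -0.00, -0.05 to 0.05). Rab10, which delivers vesicles to the plasma membrane, had 6447 and 8417 reads (307 and 321 CPM), a log2 fold of 0.07 whose interval (0.02 to 0.11) lay above 0. Rab13, best known at tight junctions, had 167 and 175 reads (-0.25, -0.57 to 0.06).

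Rab12 and Rab44 were the ends of the secretory group. Rab12, which acts in granule transport and in receptor degradation, had 407 reads (19.4 CPM) untreated and 609 (23.3 CPM) with IgE. Its log2 fold of 0.26 (0.08 to 0.45) was reached by 552 of the 8369 genes with 500 or more reads. Rab44, a large atypical Rab with calcium-binding EF hands, had 33 reads untreated and 25 with IgE, a log2 fold of -0.71 whose interval (-1.53 to 0.07) held 0. A difference in Rab44 was not detected with these reads.

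**Figure D3:**
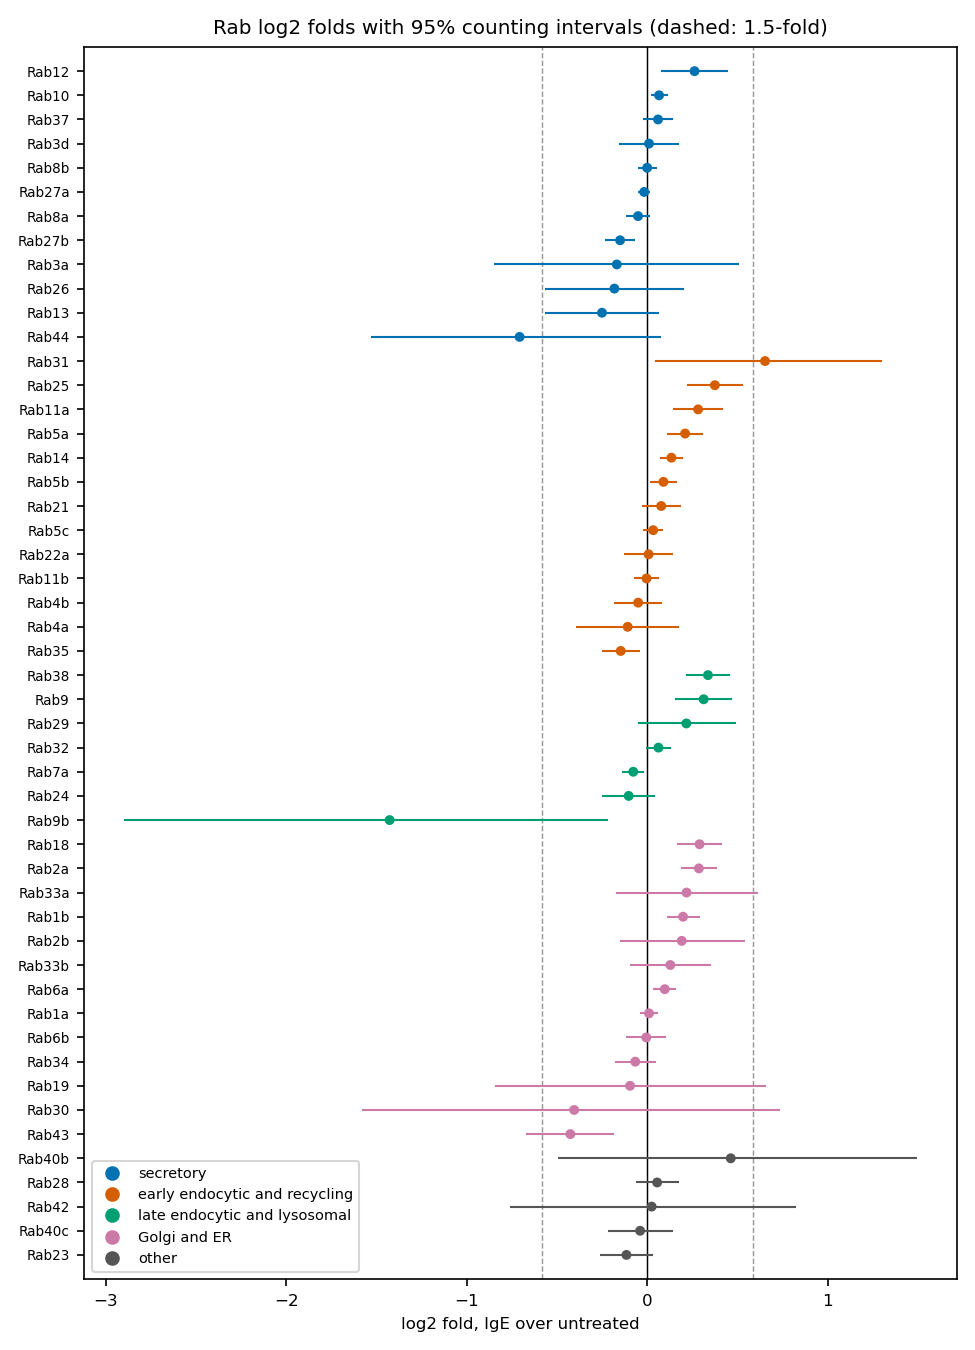
Log2 fold (IgE over untreated) of the 50 Rab genes with 20 or more reads, by role, with 95% counting intervals as bars; dashed lines mark 1.5-fold. The secretory genes with narrow bars sit close to 0, and Rab31, Rab44 and Rab9b are the points beyond the dashed lines.

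Early endocytic and recycling Rabs lay above 0 more often than below. Of the 13 counted, 9 were above 0 (69.2%, beside 51.1% of all genes) and 4 below, with a median log2 fold of 0.08. Their summed level was 1003 CPM untreated and 1053 CPM with IgE (log2 fold 0.07, 0.04 to 0.10). In 6 genes the interval lay above 0 (46.2%, beside 20% of all genes) and in 1 below (7.69%, beside 18.6%). Among all genes with 500 or more reads these shares were 23.9% and 22.5%. Rab25, a Rab11-related gene best known from epithelia, had 552 reads (26.3 CPM) untreated and 893 (34.1 CPM) with IgE, a log2 fold of 0.37 (0.22 to 0.53) that 182 of the 8369 genes with 500 or more reads reached. Rab11a, of the slow recycling route, had 712 (33.9 CPM) and 1080 reads (41.2 CPM), with 0.28 (0.14 to 0.42). Rab11b, its close paralog, had 3051 (145 CPM) and 3796 (145 CPM), with -0.00 (-0.07 to 0.07).

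The Rab5 genes, which drive early endosome fusion, differed among themselves. Rab5a had 1411 reads (67.2 CPM) untreated and 2036 (77.8 CPM) with IgE, a log2 fold of 0.21 (0.11 to 0.31). Rab5b had 2455 and 3259 reads (117 and 124 CPM, 0.09, 0.01 to 0.17), and Rab5c 4841 and 6179 (231 and 236 CPM, 0.03, -0.02 to 0.09). The intervals of Rab5a and Rab5c did not overlap. A separate row of the table, Rab5al1, with 131 and 178 reads, bears a name like that of Rab5a, and how reads were divided between them is not given in the sources used here.

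Rab14, which runs between the Golgi and endosomes, had 3542 and 4849 reads (169 and 185 CPM, log2 fold 0.13, 0.07 to 0.20). Rab35, of the fast recycling route at the plasma membrane, was the lowest of the group, with 1365 and 1538 reads (65.0 and 58.7 CPM, -0.15, -0.25 to -0.04). The intervals of Rab21 (0.08) and Rab22a (0.01), both early endosomal, and of the fast recycling genes Rab4a (-0.11) and Rab4b (-0.05) held 0. Rab31, which acts between the Golgi and endosomes, had the highest log2 fold of all Rab genes but few reads, 34 (1.62 CPM) untreated and 67 (2.56 CPM) with IgE. Its log2 fold of 0.65 had an interval of 0.04 to 1.30, which nearly reached 0.

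Late endocytic and lysosomal Rabs spread more widely only through Rab9b (-1.43, 18 and 8 reads). The others ran from -0.10 (Rab24) to 0.34 (Rab38). Of the 7 counted, 4 lay above 0 (57.1%, beside 51.1% of all genes) and 3 below. The median log2 fold was 0.06, and 0.14 without Rab9b. The mean was -0.10, of the opposite sign. Rab7a, of late endosomes and lysosomes, had 4111 reads (196 CPM) untreated and 4860 (186 CPM) with IgE, a log2 fold of -0.08 (-0.14 to -0.02). Rab9, which returns receptors from late endosomes to the Golgi, had 535 (25.5 CPM) and 829 (31.7 CPM), with 0.31 (0.15 to 0.47). Rab7a was thus slightly lower and Rab9 higher with IgE, and their intervals did not overlap. Of the 8369 genes with 500 or more reads, 2367 were at or below the Rab7a value and 361 at or above that of Rab9.

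Rab32 and Rab38 serve lysosome-related organelles such as melanosomes, the class to which mast cell granules also belong. Rab38 had 909 reads (43.3 CPM) untreated and 1432 (54.7 CPM) with IgE, a log2 fold of 0.34 (0.22 to 0.46) reached by 283 of 8369 genes. Rab32 had 3116 (148 CPM) and 4058 (155 CPM), with 0.06 (-0.01 to 0.13), an interval that lay below that of Rab38. Rab24, linked to autophagy, was at -0.10 (-0.25 to 0.05) and Rab29, of lysosomes and the Golgi, at 0.22 (-0.05 to 0.49).

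Golgi and endoplasmic reticulum Rabs had a median log2 fold of 0.10, which was 0.05 with no minimum of reads. Of 14 genes counted, Rab36 had too few reads for a ratio, 8 lay above 0 (61.5%, beside 51.1% of all genes) and 5 below. The summed level went from 771 CPM untreated to 815 CPM with IgE (log2 fold 0.08, 0.05 to 0.11). Rab1a, of transport from the endoplasmic reticulum to the Golgi, had 5654 and 7102 reads (269 and 271 CPM, 0.01, -0.04 to 0.06). Rab1b, with the same role, had 1668 (79.5 CPM) and 2388 (91.2 CPM), a log2 fold of 0.20 (0.11 to 0.29), and so lay above Rab1a beyond counting error.

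Rab2a, of traffic between the endoplasmic reticulum and Golgi, had 1302 and 1981 reads (62.0 and 75.7 CPM, log2 fold 0.29, 0.18 to 0.39). Rab18, of the endoplasmic reticulum and lipid droplets, had 891 and 1359 (42.5 and 51.9 CPM, 0.29, 0.17 to 0.41). Rab6a, which acts in transport within and out of the Golgi, had 3464 and 4622 (165 and 177 CPM, 0.10, 0.03 to 0.16), and its paralog Rab6b 1210 and 1504 (57.7 and 57.4 CPM, -0.01, -0.12 to 0.10). The 4 intervals above 0 in this group were those of Rab1b, Rab2a, Rab18 and Rab6a (30.8% of 13, beside 20% of all genes), and the 1 below 0 was that of Rab43 (7.69%, beside 18.6%). For all genes with 500 or more reads the shares above and below were 23.9% and 22.5%.

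Rab43, a Golgi Rab, was the lowest Rab with 500 or more reads. It had 292 reads (13.9 CPM) untreated and 271 (10.3 CPM) with IgE, a log2 fold of -0.43 (-0.67 to -0.18). Of the 8369 genes with as many reads, 36 were at or below that value, Rab43 included. Rab33a (0.22), Rab33b (0.13), Rab2b (0.19), Rab34 (-0.07), Rab19 (-0.10) and Rab30 (-0.40) had intervals that held 0, and Rab19 and Rab30 had 65 and 29 reads over both libraries.

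The other Rabs, whose roles are in cilia or less settled, all had intervals that held 0. The median of the 5 was 0.02, and -0.04 with a minimum of 100 reads. Rab28, of cilia, was at 0.05 (1024 and 1327 reads), Rab23, which restrains Hedgehog signalling, at -0.12 (699 and 805 reads), and Rab40c, a Rab fused to a SOCS box, at -0.04 (463 and 562 reads). Rab42 had 26 and 33 reads and Rab40b 15 and 26, the latter with a log2 fold of 0.46 and an interval from -0.50 to 1.5.

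Paralogs with the same number could be set against each other within a library. Whether transcript length weighed on the counts alike in both libraries was not tested. If so, the size in percentage points of a change of share in a subfamily of 2 depends on length, but its direction does not. In Rab5, with 3 members, that holds for Rab5a and Rab5c, which had the highest and lowest log2 folds, but not for Rab5b. Of 12 such subfamilies, 5 had a member whose share of the subfamily's reads differed between libraries beyond the counting intervals. Intervals excluding no difference were common in these libraries, at 38.5% of all genes, and the share was not computed for other gene families, so nothing particular to Rabs is read from the 5. Rab11a made up 18.9% of Rab11a and Rab11b reads untreated (17.7 to 20.2) and 22.1% with IgE (21.0 to 23.3). Rab1b made up 22.8% of Rab1 reads (21.8 to 23.8) and 25.2% (24.3 to 26.0), and Rab5a 16.2% of Rab5 reads (15.4 to 17) and 17.7% (17.1 to 18.5). Rab27b went the other way, from 14.9% of Rab27 reads (14.3 to 15.5) to 13.8% (13.3 to 14.3), as did Rab9b, from 3.25% of Rab9 reads (1.94 to 5.10) to 0.956% (0.414 to 1.88).

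In each of the 12 subfamilies the same paralog drew most of the reads in both libraries. The shifts named were at most 3.23 percentage points. Rab27a kept 85.1% and 86.2% of Rab27 reads, Rab3d 93.6% and 94.3% of those of Rab3a and Rab3d, and Rab5c 55.6% and 53.9% of Rab5 reads. These are shares of reads, so a longer transcript counts for more. Near-identical stretches of paralogs could be counted to either gene, and how such reads were assigned is not given in the sources used here.

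**Figure D4:**
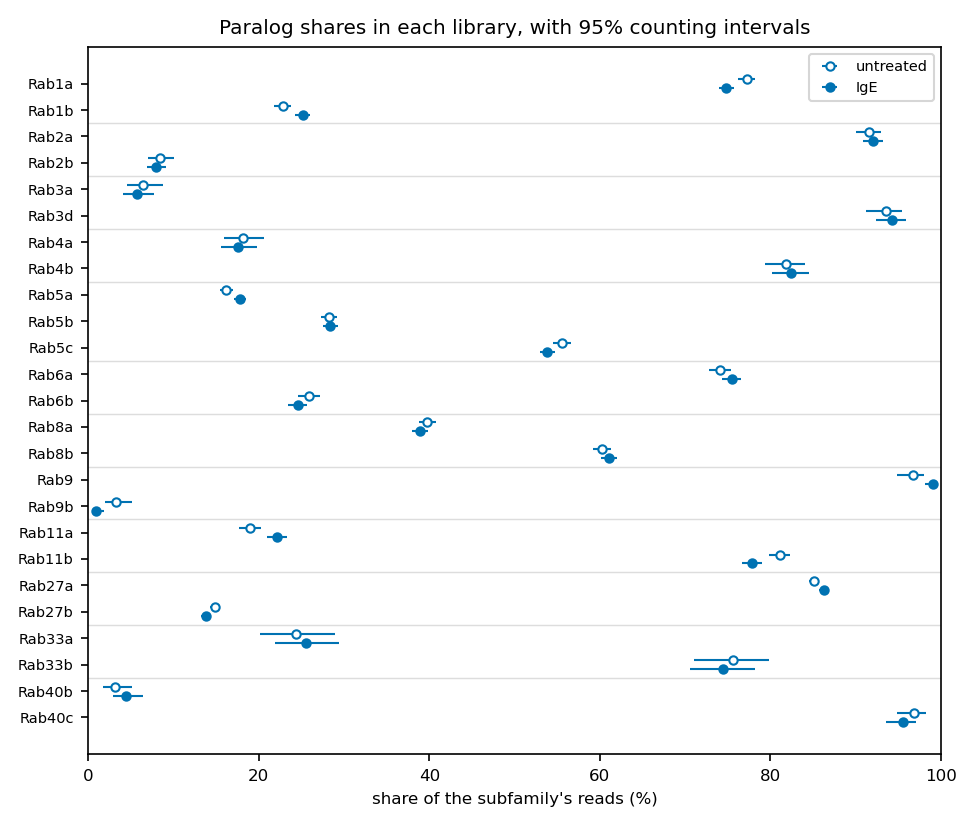
Share of a Rab subfamily's reads (percent) that each paralog drew in the untreated library (open) and the IgE library (filled), with 95% counting intervals. Rab11a moves from 18.9% to 22.1% and Rab27b from 14.9% to 13.8%, and the paralog with most reads is the same in both libraries.

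Genes that act on Rabs were described from lists chosen by role. All 8 escort, prenylation and GDP dissociation genes were counted, and the median log2 fold was 0.08. Of these, 7 lay above 0 (87.5%, beside 51.1% of all genes) and 1 below, but in 5 the interval held 0. In 3 it lay above 0 (37.5%, beside 20% of all genes and 23.9% of those with 500 or more reads). Rabac1, a membrane receptor for prenylated Rabs, was highest at 0.33 (0.14 to 0.53, 352 and 554 reads), followed by Rabggtb, the beta subunit of Rab geranylgeranyl transferase, at 0.13 (5723 and 7790 reads). Rabggta, the alpha subunit of the same enzyme, was lowest at -0.08 (390 and 460 reads), and Rabif at 0.04 the next lowest. Gdi2, a GDP dissociation inhibitor, stood at 700 and 747 CPM (0.09, 0.06 to 0.12).

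Exchange factors lay mostly below 0. Of 31 listed, 25 had 20 or more reads, of which 8 were above 0 and 17 below (68%, beside 48.9% of all genes), with a median of -0.11. In 9 the interval lay below 0 (36%, beside 18.6% of all genes and 22.5% of those with 500 or more reads). In 2 it lay above (8%, beside 20% of all genes). Rabgef1, the Rab5 exchange factor also called Rabex-5, was highest at 0.25 (0.05 to 0.45, 347 and 514 reads), followed by Dennd3 at 0.21 (-0.12 to 0.54). Sh3bp5l, an exchange factor for Rab11, was lowest at -0.43 (-0.63 to -0.24, 462 and 427 reads), and Hps4, part of the exchange factor for Rab32 and Rab38, next at -0.33 (-0.51 to -0.14, 472 and 470 reads).

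Rab effectors lay below 0 in a like share. Of 46 listed, 34 had 20 or more reads, with a median of -0.13. Of the 34, 12 were above 0 and 22 below (64.7%, beside 48.9% of all genes). In 14 the interval lay below 0 (41.2%, beside 18.6% of all genes and 22.5% of those with 500 or more reads). In 1, that of Exoc6, it lay above (2.94%, beside 20% of all genes). Rilp, the Rab7 effector that links late endosomes to dynein, was lowest at -0.96 (-1.89 to -0.10, 30 and 19 reads), and its relative Rilpl1 next at -0.70 (-1.18 to -0.23, 90 and 69 reads). Micall2 (0.62, 17 and 33 reads) and the Rab27 effector Sytl1 (0.26, 12 and 18 reads) were highest, both with intervals that held 0. Unc13d, the Rab27 effector Munc13-4 that primes granules for fusion, had 5311 reads (253 CPM) untreated and 5907 (226 CPM) with IgE, a log2 fold of -0.17 (-0.22 to -0.11), while the Rab27 effectors Sytl2 and Sytl3 were at 0.00 and 0.02.

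GTPase-activating proteins were near the background in the signs of their log2 folds. Of 24 listed, 23 had 20 or more reads, 11 above 0 and 12 below (52.2%, beside 48.9% of all genes). In 2 the interval lay above 0 (8.7%, beside 20% of all genes) and in 3 below (13%, beside 18.6%). Their median was -0.03 and their mean 0.02. Tbc1d2, which acts on Rab7, had 11 and 33 reads (1.23, 0.25 to 2.40) and was the gene of these lists that exceeded 2-fold. Tbc1d30 was next highest at 0.25 (-0.08 to 0.58), and Sgsm3 (-0.26, -0.41 to -0.10) and Tbc1d22a (-0.17, -0.31 to -0.02) were lowest.

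**Figure D5:**
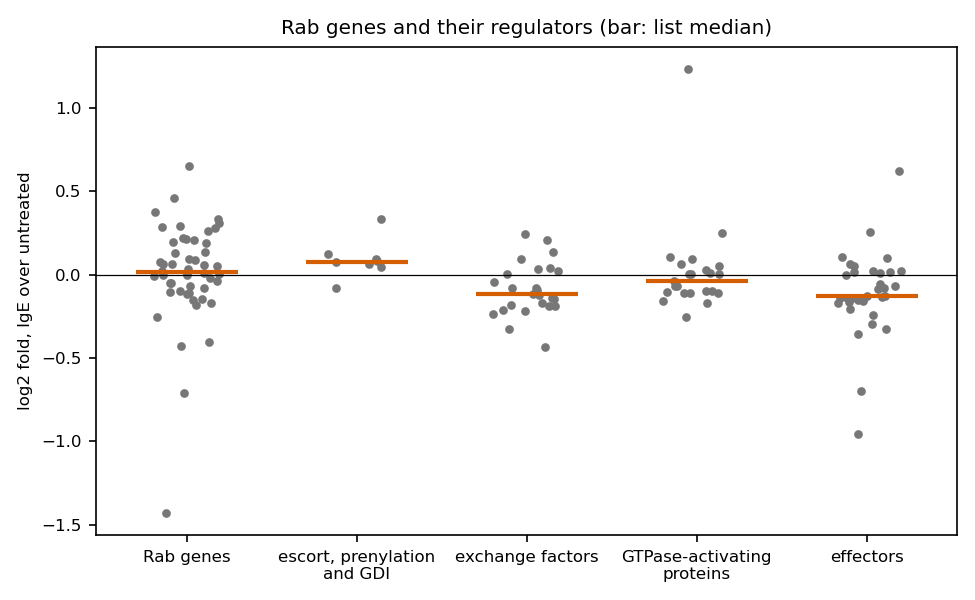
Log2 fold (IgE over untreated) of each Rab gene and each gene of the 4 lists of Rab regulators and effectors with 20 or more reads (points, spread sideways for legibility), with the list median as a bar. The medians are 0.02, 0.08, -0.11, -0.03 and -0.13 from left to right.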

How the data were processed

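Poly(A)-selected RNA of 1 untreated and 1 IgE library of RBL-2H3 cells was sequenced. The authors deposited whole-number read counts for each gene name. Beside them, per the file headers, stand the authors' log2 fold change and p-value (unadjusted and adjusted). Build rn6, HISAT2 2.1.0, fastp 0.23.0 and DESeq2 1.18.1 appear in the submitters' processing notes, with no role for each. The counting tool and its strand setting are not stated there.

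Of 16990 rows, identical rows were kept once, which left 14913 names (Rab1b stood in 2 identical rows). Members were names made of Rab, a number and an optional letter and digit, and 51 were found. Rab9 was matched to the RefSeq gene Rab9a by synonym, and Ccz1 was read from the row Ccz1b. Libraries were scaled together by TMM in edgeR 4.0.16 (R 4.3.3). Log2 folds used log2 CPM with a prior of 0.5 counts, for genes with 20 or more reads. Intervals are exact Clopper-Pearson at 95%. The floor of detection was set at 3 reads, which is 0.143 CPM untreated and 0.114 CPM with IgE. No test was made across samples. The calculation was tested on simulated data. DESeq2 1.42.0 gave the size factors of an alternative scaling.

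Members and lists were chosen with earlier results of these data known. All members could be named, and of each regulator list the 2 highest and 2 lowest log2 folds. Unc13d, Exoc6, Gdi2, Sytl2 and Sytl3 were named after their values were seen.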

Additional observations from a re-analysis of the deposited data

How the results depend on the processing

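Of 150 alternative log2 folds of Rab genes (library totals, DESeq2 size factors or a prior of 5 counts), 150 stayed within the gene's counting interval, and 1 changed sign, Rab22a at -0.00 with library totals. The 2 scalings shifted all genes nearly alike and by little, so they could hardly have left the intervals. The median over all genes was 0.00494, and -0.00425 with library totals and 0.0024 with DESeq2 size factors. Of 60 alternative medians of role groups and regulator lists, 58 stayed within the median counting limits of their members. The exceptions were the late endocytic and lysosomal group, at 0.139 with a minimum of 100 reads and at 0.139 without its most extreme member, Rab9b. Those limits are medians of the members' own limits and not an interval of a group median, so staying within them says little. The 2 scalings could hardly have left them either. The limits of the group of other Rabs were wide (-0.26 to 0.17), and its median of 0.02 changed sign within them. It was -0.04 with a minimum of 100 reads and -0.01 without the most extreme member of that group. The count of Rab genes at least 2-fold apart was 2 with no minimum and 0 with a minimum of 100 reads, and the count at least 1.5-fold apart was 1 with that minimum. Both changes follow from the few reads of Rab36, Rab9b and Rab44. The count of 7 well-counted Rab genes at least 1.2-fold apart, chosen after seeing the data, was 7 under each of the 3 alternatives. Keeping the repeated row of Rab1b counted its reads 2 times, so that Rab1a took 62.9% of Rab1 reads untreated and 59.8% with IgE, and Rab1b 37.1% and 40.2%; the other subfamilies hold no repeated row. No paired analysis was possible because there was a single library per condition, which also means that none could be omitted. Depth limits the genes with under 100 reads, and variation between cultures was not measured.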
